A study of Mus musculus with 15 samples.

Results

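The COPII coat is described here through 10 mouse genes: Sar1a and Sar1b, Sec23a and Sec23b, Sec24a, Sec24b, Sec24c and Sec24d, Sec13, and Sec31a. They were chosen by name, with earlier results of these data known. Every probe set that the platform's annotation gives to one of them alone was taken. That gave 14 probe sets of the 45101 on the array, for 10 of the 18193 genes with a probe set of their own. All 14 passed the filter on dim signals, which 37203 probe sets passed in all. Sar1a, Sec24a, Sec24b and Sec24c had more than 1 probe set, and wherever a single value is given for a gene it is that of its brightest probe set by mean over the 15 arrays.

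The arrays measured messenger RNA of primary hepatocytes from C57BL/6 mice, kept in HepatoZYME-SFM medium and infected with adenovirus. The 5 groups held 3 arrays each, and the series text states 3 independent experiments. For 48 hours and without further treatment, hepatocytes carried EGFP (a fluorescent protein, the control), wild-type IRE1a (Ad-WT) or S724A IRE1a (Ad-S724A). For 72 hours they carried a control hairpin (Ad-shCON) or a hairpin against IRE1a (Ad-shIRE1a#2), and both of these groups then received glucagon for 4 hours. Every group carried a virus, and no uninfected cells were among the arrays. Since nothing ties the arrays to separate animals, the p-values measure the spread between these samples, which may be partly technical. Virus, time and glucagon differed together between the 48-hour and the 72-hour arm, and their parts cannot be told apart.

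COPII forms the vesicles that carry newly made proteins out of the endoplasmic reticulum (ER). The small GTPase SAR1 inserts into the ER membrane when loaded with GTP. It recruits the inner coat, a dimer of SEC23, which activates the GTPase of SAR1, and SEC24, which binds cargo. SEC13 and SEC31 then form the outer cage. Hepatocytes export albumin, apolipoproteins and clotting factors by this route. IRE1a, the product of Ern1, is an ER stress sensor that splices Xbp1 messenger RNA with its RNase, and the resulting transcription factor is known to raise many genes of the secretory pathway.

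Promoter sequence was set beside the values because the members moved unequally. In the RefSeq promoter table of mouse build GRCm38.p6, all 10 genes matched by symbol, each with a window from 250 bases before to 50 bases after a transcription start. Sec23b and Sec31a had 2 windows each. The letters GCCACGT, which include the CCACG of ER stress elements bound by XBP1 and ATF6, were searched on both strands, so that ACGTGGC counts as a match. They were present in 6 of the 10 genes, against 2.58% of all 32851 windows and 2.95% of the 27025 genes with a window. Of these, 5 are printed with the matched letters in capitals, each read 5′ to 3′ on the strand of its gene.
Sar1a: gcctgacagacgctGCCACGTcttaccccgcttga
Sec24c: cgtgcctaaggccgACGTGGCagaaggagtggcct
Sec24d: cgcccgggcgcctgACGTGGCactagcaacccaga
Sec13: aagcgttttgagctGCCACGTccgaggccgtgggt
Sec31a: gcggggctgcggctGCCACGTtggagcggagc

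The Sar1a stretch lies at chr10:61680113-61680147 on the plus strand, with the match at bases -158 to -152 from the transcription start. That of Sec24c lies at chr14:20674232-20674266 on the plus strand, matched at bases -75 to -69. For Sec24d it lies at chr3:123267458-123267492 on the plus strand, matched at bases -24 to -18. For Sec13 it lies at chr6:113740664-113740698 on the minus strand with the match across the start, and for Sec31a at chr5:100416205-100416236 on the minus strand, matched at bases 13 to 19 of the transcript.

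The windows of Sar1b, Sec23b, Sec24a and Sec24b held no match. The letters TGACGTGG, the core of the unfolded protein response element, which shares bases with ACGTGGC, occurred in 2 of the 10 genes, against 0.676% of all windows and 0.714% of genes. The longer ER stress response element, CCAAT followed after 9 bases by CCACG, occurred in 0 of the 10 genes, against 0.119% of windows and 0.137% of genes. The motifs were picked after changes of these genes were known, and a match is a description of letters, not a binding site. With either form of IRE1a against EGFP, 4 of the 6 genes with a GCCACGT match rose and 2 did not pass the test, and 1 of the 4 genes without a match, Sec23b, rose.

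The hairpin was checked on its target. The brightest Ern1 probe set read 7.60, 7.44 and 7.51 on the log2 scale with the IRE1a hairpin and 8.89, 8.96 and 9.10 with the control hairpin, so that it fell by 1.47 ± 0.19 (SE, 2.76-fold lower, adjusted p = 0.00505). Of the 4 dimmer Ern1 probe sets, 3 changed by -0.43 to -0.65 and 1 by 0.35, and none passed (adjusted p between 0.156 and 0.652). The mean of the Ern1 probe sets fell by 0.56 (adjusted p = 0.0258). The brightest probe set averaged 8.97 ± 0.39 (SD, n = 3) with EGFP, 9.09 ± 0.20 with wild-type and 9.42 ± 0.34 with S724A IRE1a. Neither IRE1a group passed the test against EGFP (adjusted p = 0.805 and 0.191; 0.0382 for S724A with the replicate number as a block). Whether any Ern1 probe set lies within the delivered coding sequence is not known from the files, so it does not check these labels. Hepatocyte markers were bright, with a mean over 8 genes of 12.20 to 12.64 and albumin between 14.15 and 14.56 on the 15 arrays. Markers of other cell types were dimmer, with exceptions. Of 6 stellate markers Lrat stayed under 4 on all 15 arrays, and the medians of the rest ran from 4.83 (Col1a1) to 7.09 (Acta2). Of 4 bile duct markers Krt7 stayed under 4, and the rest had medians of 5.67 (Krt19) to 6.79 (Epcam). Of 5 lymphocyte and neutrophil markers the pan-leukocyte gene Ptprc stayed under 4, and the rest had medians of 3.84 (S100a8) to 5.82 (Cd3e). The 6 endothelial markers had medians of 4.43 (Pecam1) to 6.43 (Stab2). The macrophage genes Cd68 and Cd14 reached medians of 11.79 and 11.76, and the other 4 macrophage markers 4.72 (Marco) to 6.79 (Csf1r).

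Wild-type IRE1a against EGFP asks what a virus carrying IRE1a changes in the coat. Sar1a, Sec23b, Sec24c, Sec24d and Sec31a rose, Sec24d the most at 2.61-fold, and Sar1b, Sec23a, Sec24a, Sec24b and Sec13 did not pass the test. Counted by probe set, 6 of 14 rose, against 3.08% of all tested probe sets, and 0 of 14 fell, against 1.72% (limma, adjusted p under 0.05; 7 of 14 at an unadjusted p under 0.05). The median change of the 14 was 0.30 on the log2 scale, against -0.01 over all tested probe sets. S724A IRE1a, which has alanine in place of 1 serine, gave the same counts against the same EGFP arrays. There 6 of 14 rose, against 2.58%, and 0 of 14 fell, against 1.5% (8 of 14 unadjusted), with a median of 0.28 against -0.01. Because both comparisons share the 3 EGFP arrays, their likeness is not independent evidence. In RNA from whole cultures, fewer cells that carry a transcript and less RNA per cell cannot be told apart.

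**Figure D1:**
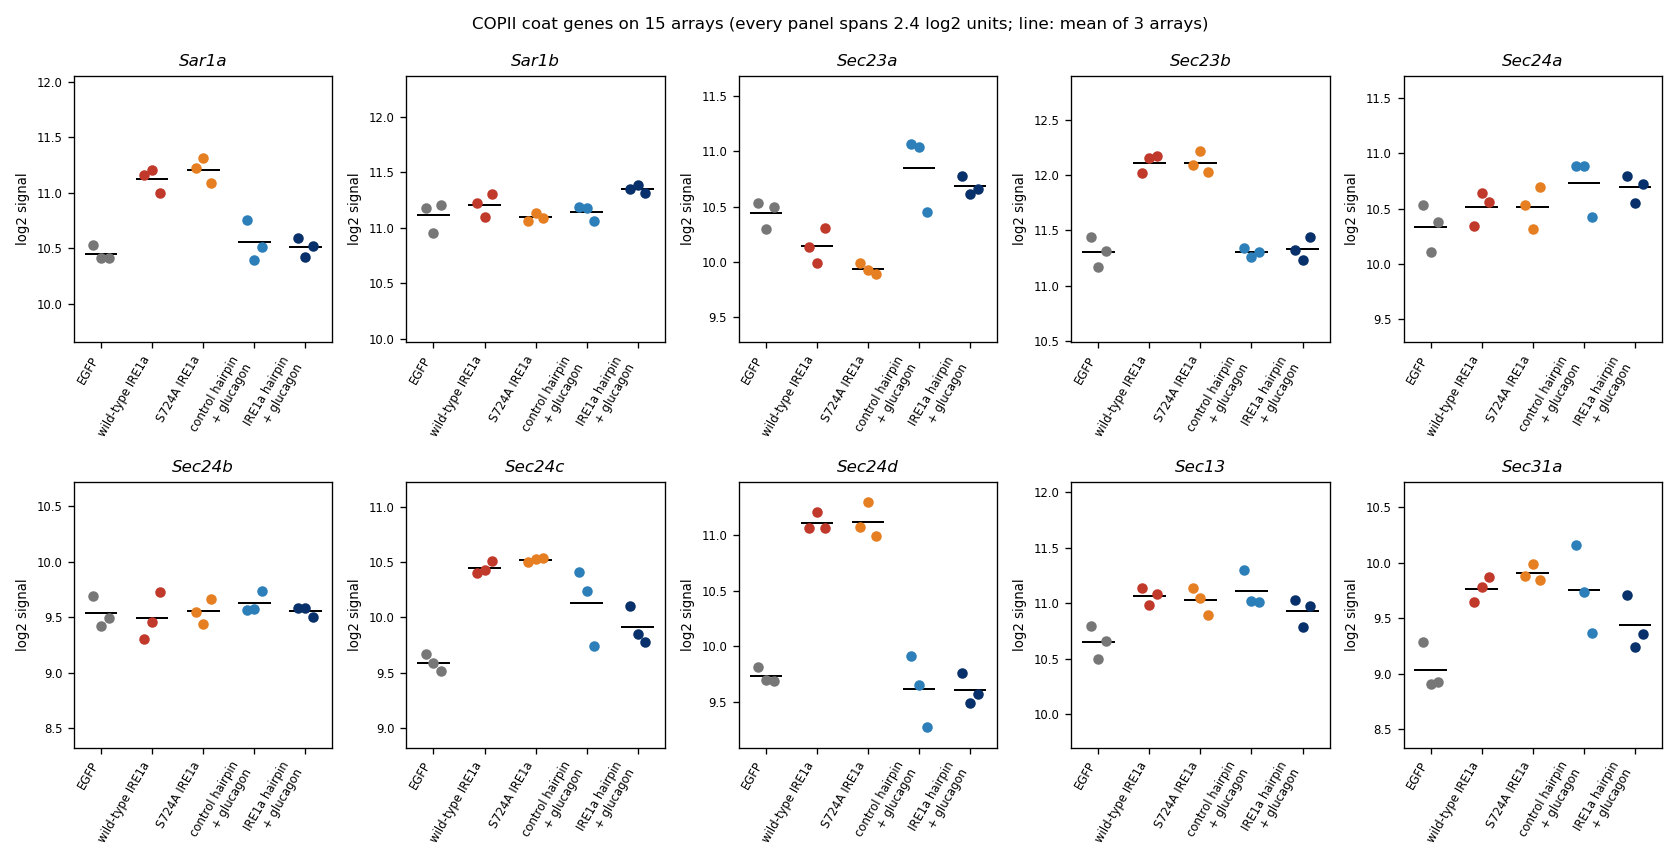
Log2 signal of the 10 COPII coat genes on the 15 arrays, 1 panel per gene with its brightest probe set, 1 point per array and a line at each mean of 3 arrays; every panel spans the same number of log2 units. Sec24d lies between 11.00 and 11.30 on the 6 IRE1a arrays and between 9.27 and 9.91 on the other 9, whereas Sec24b lies between 9.31 and 9.74 on all 15.

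The GTPase genes Sar1a and Sar1b behaved differently. Sar1a signals were 10.53, 10.41 and 10.41 with EGFP, 11.16, 11.21 and 11.00 with wild-type IRE1a, and 11.23, 11.32 and 11.09 with S724A IRE1a. Every IRE1a array lay above every EGFP array. The rises were 0.67 ± 0.11 (SE, 1.60-fold, adjusted p = 0.00246) and 0.76 ± 0.11 (1.70-fold, adjusted p = 0.00103). A second Sar1a probe set gave 0.72 ± 0.11 (adjusted p = 0.00189) and 0.75 ± 0.11 (adjusted p = 0.00135). Sar1b, the form whose loss in humans blocks the export of chylomicrons from the gut, read 11.18, 10.95 and 11.21 with EGFP. It read 11.22, 11.10 and 11.30 with wild-type and 11.06, 11.13 and 11.09 with S724A IRE1a, so that its groups overlapped. Its changes were 0.10 ± 0.10 (adjusted p = 0.663) and -0.02 ± 0.10 (adjusted p = 0.939), with 95% intervals of -0.11 to 0.30 and -0.22 to 0.19.

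Of Sec23a and Sec23b, alternative partners of SEC24 in the inner coat, Sec23b rose and Sec23a did not. Sec23b, which is mutated in a human anaemia of red cell precursors, read 11.44, 11.17 and 11.31 with EGFP, 12.02, 12.15 and 12.17 with wild-type, and 12.09, 12.21 and 12.03 with S724A IRE1a. The IRE1a arrays lay above all EGFP arrays, a rise by 0.80 ± 0.10 in each comparison (1.74-fold, adjusted p = 0.000276 and 0.000280). Sec23a, which is mutated in a human disorder of skull and lens, read 10.53, 10.30 and 10.50 with EGFP, 10.14, 9.99 and 10.31 with wild-type, and 9.99, 9.93 and 9.89 with S724A IRE1a. The wild-type arrays overlapped EGFP and the S724A arrays all lay below it. The changes were -0.30 ± 0.15 (adjusted p = 0.325) and -0.51 ± 0.15 (adjusted p = 0.0721). For S724A the arrays of the same replicate number deviated together, and with the replicate number as a block Sec23a passed (adjusted p = 0.0357). It also passed after quantile normalization (adjusted p = 0.0288) and with the 6 arrays fitted alone (adjusted p = 0.0300).

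Among the cargo adaptors, Sec24d and Sec24c rose, and Sec24a and Sec24b did not pass. SEC24C and SEC24D are the more closely related pair in mammals, as are SEC24A and SEC24B. Sec24d, needed for skull and face cartilage in zebrafish, read 9.82, 9.70 and 9.69 with EGFP. It read 11.07, 11.21 and 11.07 with wild-type IRE1a and 11.08, 11.30 and 11.00 with S724A IRE1a, with more than a log2 unit between the highest EGFP array and the lowest IRE1a array. The rises were 1.38 ± 0.14 (2.61-fold, adjusted p = 5.42e-05) and 1.39 ± 0.14 (2.62-fold, adjusted p = 5.18e-05), the largest among the members in both comparisons.

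Sec24c read 9.67, 9.59 and 9.51 with EGFP, 10.40, 10.43 and 10.51 with wild-type, and 10.50, 10.53 and 10.54 with S724A IRE1a. Both IRE1a groups were far from EGFP beside their spread: the rises were 0.86 ± 0.14 (1.81-fold, adjusted p = 0.00282) and 0.93 ± 0.14 (1.91-fold, adjusted p = 0.00161). A second Sec24c probe set disagreed. It was dim, with group means between 4.61 and 4.98, and its changes were -0.38 ± 0.20 and -0.10 ± 0.20 (adjusted p = 0.345 and 0.796). With the mean of both probe sets in place of the brighter one, Sec24c changed by 0.24 and 0.41 and neither call held (adjusted p = 0.282 and 0.0576).

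Sec24a read 10.53, 10.11 and 10.38 with EGFP, 10.34, 10.64 and 10.56 with wild-type, and 10.54, 10.31 and 10.69 with S724A IRE1a. Sec24b, needed in mice for neural tube closure, read 9.69, 9.43 and 9.49, then 9.31, 9.46 and 9.73, then 9.55, 9.44 and 9.67 in the same groups. Both genes overlapped EGFP throughout. Sec24a changed by 0.18 ± 0.15 and 0.17 ± 0.15 (adjusted p = 0.612 and 0.536). Sec24b changed by -0.04 ± 0.12 and 0.02 ± 0.12 (adjusted p = 0.913 and 0.943), with 95% intervals of -0.29 to 0.22 and -0.24 to 0.27, below the size of the Sec24c rise. The second probe sets, with group means of 4.91 to 4.99 for Sec24a and 8.21 to 8.44 for Sec24b, changed by -0.20 to 0.08 and did not pass in either comparison.

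Of the outer cage, Sec31a rose and Sec13 narrowly missed the threshold. Sec31a, whose product holds the rods of the cage, read 9.28, 8.91 and 8.92 with EGFP, 9.65, 9.78 and 9.87 with wild-type, and 9.88, 9.99 and 9.84 with S724A IRE1a. Neither IRE1a group overlapped EGFP, and the rises were 0.73 ± 0.18 (1.66-fold, adjusted p = 0.0306) and 0.87 ± 0.18 (1.82-fold, adjusted p = 0.0128). EGFP replicate 1 was the high array of the control group. In the wild-type comparison, leaving out an EGFP array ended the call for replicate 2 (adjusted p = 0.130) and 3 (0.115), and leaving out an IRE1a array did so for replicate 2 (0.0774) and 3 (0.0946). The S724A call did not hold without EGFP replicate 2 (adjusted p = 0.0722), EGFP replicate 3 (0.0573) or S724A replicate 2 (0.0616).

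Sec13, whose product also serves in the nuclear pore, read 10.79, 10.50 and 10.66 with EGFP, 11.14, 10.98 and 11.08 with wild-type, and 11.14, 11.05 and 10.90 with S724A IRE1a. The IRE1a arrays again lay above all EGFP arrays, but the changes of 0.42 ± 0.12 (1.34-fold) and 0.38 ± 0.12 (1.30-fold) missed the threshold (adjusted p = 0.0569 and 0.0858). With the replicate number as a block the S724A change passed (adjusted p = 0.0395). The wild-type change passed under 7 of 17 alternatives, with adjusted p between 0.0221 and 0.223 over all 17.

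**Figure D2:**
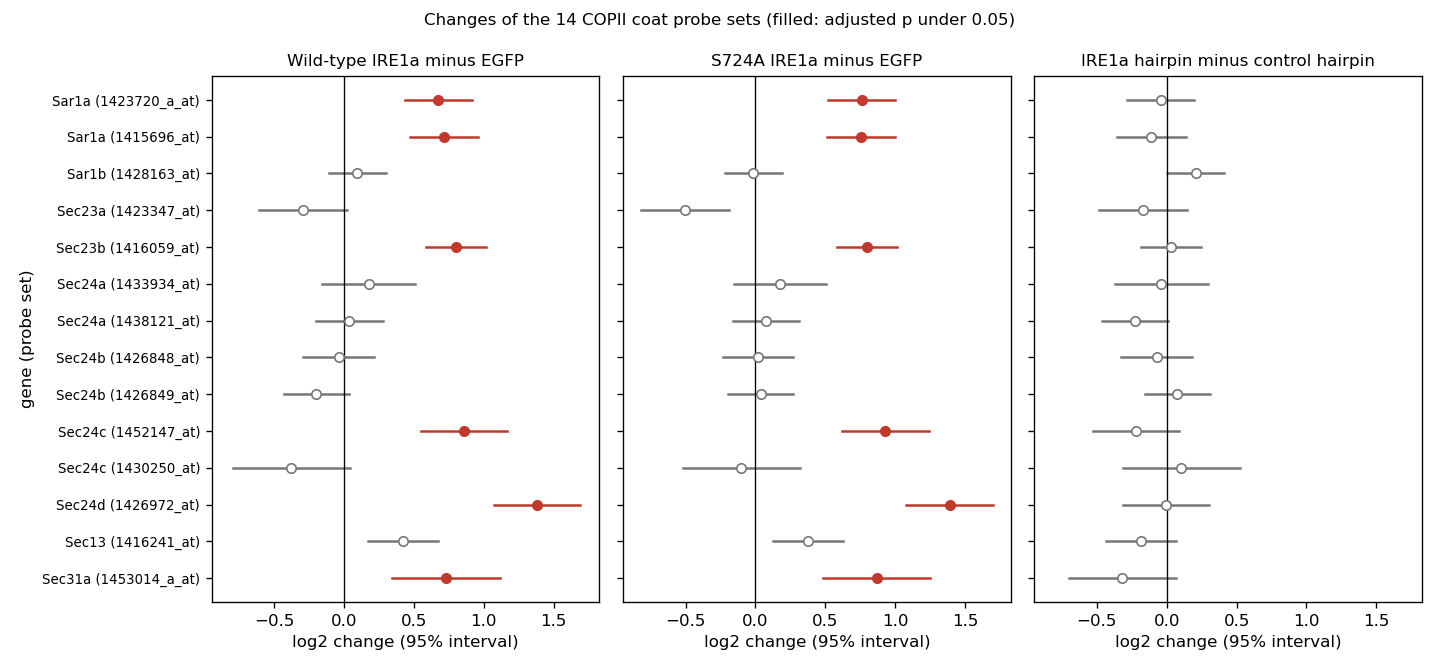
Log2 change with its 95% confidence interval for each of the 14 COPII coat probe sets in 3 comparisons, filled where the adjusted p of limma was under 0.05. In both IRE1a comparisons Sar1a, Sec23b, Sec24c, Sec24d and Sec31a are filled and lie right of 0, while no probe set is filled in the hairpin comparison.

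Levels of cell type markers moved with some of these groups. The mean signal of 6 macrophage markers was 7.51 to 7.63 with EGFP, 7.60 to 7.79 with wild-type and 7.66 to 7.74 with S724A IRE1a, so that S724A lay above EGFP. That list was mixed. With S724A, Cd14 changed by 0.88, Cd68 by 0.29 and Marco by 0.02, but Csf1r by -0.21, Clec4f by -0.18 and Adgre1 by -0.07. The mean over 6 stellate markers was 5.40 to 5.59 with EGFP, 5.34 to 5.54 with wild-type and 5.28 to 5.34 with S724A, and over 5 lymphocyte and neutrophil markers 4.45 to 4.54, 4.42 to 4.48 and 4.31 to 4.40. The last list was mixed too: with S724A, Cd3e and S100a9 changed by -0.32 and -0.20, but Cd79a and S100a8 by 0.11 and 0.03. The 6 endothelial, 4 bile duct and 2 erythroid markers had overlapping ranges in the 3 groups. In neither comparison did a marker of these other cell types pass the test (limma; at most 1 of a list at an unadjusted p under 0.05). Of 8 hepatocyte markers, Hnf4a alone rose, with wild-type IRE1a (0.74 ± 0.19, adjusted p = 0.0350). The part of these shifts in the coat genes was not tested.

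Whether paralogues responded unequally was tested on their difference within each array, for 8 pairs in the Sar1, Sec23 and Sec24 families, with p adjusted over all 37202 other probe sets set against the same reference gene. The share of probe sets that differ from the reference is the background for such a call. For Sar1a that share was 83.6% with wild-type and 85.9% with S724A IRE1a, so a difference from Sar1a is the rule on this array. For Sec24c it was 90.5% and 91.1%, and for Sec23a it was 9.24% and 42.9%. Against Sec24a and Sec24b few probe sets differed: 1.71% and 1.17% for Sec24a, and 3.48% and 1.97% for Sec24b.

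Sar1b changed less than Sar1a, by 0.58 ± 0.15 log2 units with wild-type (95% interval of the difference -0.89 to -0.27, adjusted p = 0.00228) and by 0.78 ± 0.15 with S724A IRE1a (-1.09 to -0.47, adjusted p = 0.000211). In both comparisons the within-array difference of all 3 IRE1a arrays lay below that of all 3 EGFP arrays. With Sar1b as the reference, from which 3.76% and 3.25% of probe sets differed, the adjusted p was 0.0261 and 0.00377. Sar1b and Sec24a are next to each other on chromosome 11 of the reference annotation, and neither passed the test of change. Sec24b and Sec24d share chromosome 3 but are not neighbours.

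Sec23b exceeded Sec23a by 1.10 ± 0.19 with wild-type (0.71 to 1.49, adjusted p = 0.00108) and by 1.31 ± 0.19 with S724A IRE1a (0.92 to 1.69, adjusted p = 0.000115). The gap was wider than that of the Sar1 pair. Of all probe sets 9.24% and 42.9% differed from Sec23a, and 91.2% and 89.1% from Sec23b. With Sec23b as the reference a difference is thus the rule, and with Sec23a it was common for S724A. The within-array difference did not overlap between IRE1a and EGFP arrays.

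Within the Sec24 family the estimated changes ran in the order of Sec24d, then Sec24c, then Sec24a and Sec24b. The step from Sec24c to Sec24a did not pass with Sec24a as the reference, and the place of Sec24c rests on its brighter probe set. Sec24d exceeded Sec24b by 1.42 ± 0.20 (adjusted p = 0.000515) and 1.37 ± 0.20 (adjusted p = 0.000685). It exceeded Sec24a by 1.21 ± 0.20 (adjusted p = 0.000857) and 1.22 ± 0.20 (adjusted p = 0.000836). These pairs differed on every array: no IRE1a array overlapped EGFP in the within-array difference.

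Sec24d also exceeded Sec24c, by 0.53 ± 0.16 (0.20 to 0.85, adjusted p = 0.00465) and 0.46 ± 0.16 (0.13 to 0.79, adjusted p = 0.0104). From Sec24c 90.5% and 91.1% of probe sets differed, and from Sec24d 98.3% and 98.1%, so with either reference a difference is the rule. The S724A call was lost without S724A replicate 2 (0.37, adjusted p = 0.0650). Sec24c exceeded Sec24b by 0.89 ± 0.18 (adjusted p = 0.0113) and 0.91 ± 0.18 (adjusted p = 0.0127). The wild-type call was lost without EGFP replicate 1 (adjusted p = 0.0559), and the S724A call without EGFP replicate 1 (0.0599), EGFP replicate 3 (0.0599) or S724A replicate 2 (0.0820).

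Sec24c against Sec24a depended on the reference. The differences of 0.68 ± 0.20 (0.28 to 1.08) and 0.76 ± 0.20 (0.35 to 1.16) missed the threshold with Sec24a as the reference (adjusted p = 0.0816 and 0.0563), although the within-array differences did not overlap EGFP. They passed with Sec24c as the reference (adjusted p = 0.00156 and 0.000599), a fit added after seeing the data. From Sec24c 90.5% and 91.1% of probe sets differed, so such a pass is the rule on this array. Sec24b and Sec24a differed by -0.21 ± 0.21 (-0.64 to 0.21, adjusted p = 0.638) and -0.16 ± 0.21 (-0.58 to 0.27, adjusted p = 0.716), and their within-array differences overlapped EGFP.

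**Figure D3:**
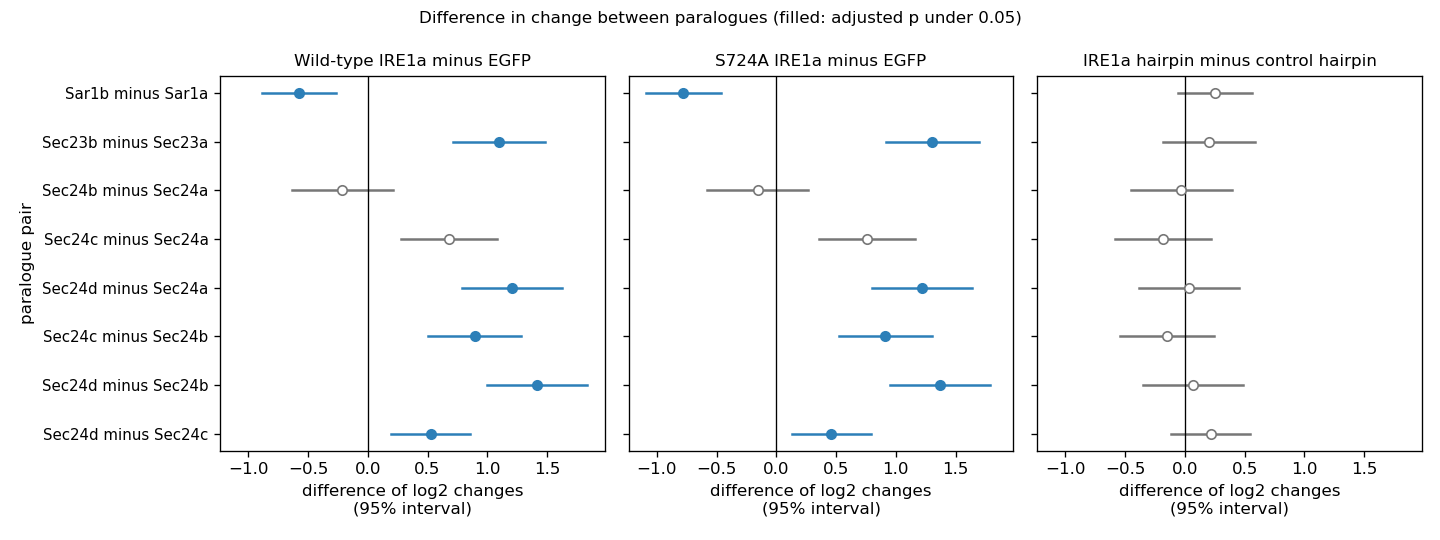
Difference in log2 change between paralogues, second named subtracted, with 95% confidence intervals for the 8 pairs in 3 comparisons; filled points had an adjusted p under 0.05. Sec23b minus Sec23a, Sec24d minus Sec24a and Sec24d minus Sec24b lie above 1 in both IRE1a comparisons, Sar1b minus Sar1a lies below 0, and all 8 intervals of the hairpin comparison include 0.

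Wild-type against S724A IRE1a asks whether the exchange of that serine alters the response. Of the 14 probe sets 0 rose and 0 fell, and over all 37203 probe sets limma called 0% in either direction (2931 at an unadjusted p under 0.05, 1 of them among the 14). With the replicate number as a block, 0 of the 14 passed, while over all probe sets 0% rose and 0.00538% fell. Sec24d differed by -0.01 (95% interval -0.32 to 0.30) and Sec23b by 0.00 (-0.21 to 0.22). Sec24c differed by -0.07 (-0.38 to 0.23), Sar1a by -0.09 (-0.33 to 0.15) and Sec31a by -0.14 (-0.52 to 0.25). The largest difference of a gene's brightest probe set was that of Sec23a, at 0.21 (-0.11 to 0.53, adjusted p = 0.751). The one past the unadjusted threshold was the second Sec24b probe set, at -0.24 (-0.47 to 0.00, adjusted p = 0.629). Over the brightest probe sets the intervals reached -0.52 and 0.53, a width set by 3 arrays per group.

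The IRE1a hairpin against the control hairpin, both with glucagon, asks whether knockdown of IRE1a lowers the coat genes in cells exposed to the hormone. The knockdown was partial, with the brightest Ern1 probe set 2.76-fold lower, so a response to full loss of IRE1a was not tested. None of the 14 probe sets passed in either direction (limma; 1 of 14 at an unadjusted p under 0.05), while 0.0188% of all probe sets rose and 0.132% fell. With the replicate number as a block none of the 14 passed either, while 0.161% of all probe sets rose and 0.363% fell. The median change of the 14 was -0.06, against 0.01 over all.

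Sec24d, the strongest responder to IRE1a, read 9.91, 9.65 and 9.27 with the control hairpin and 9.76, 9.48 and 9.57 with the IRE1a hairpin. The control arrays enclosed the others, and the change was -0.01 (95% interval -0.32 to 0.30). Sec23b read 11.34, 11.26 and 11.31 against 11.32, 11.24 and 11.44, a change of 0.03 (-0.18 to 0.25). Sar1a changed by -0.04 (-0.28 to 0.20).

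Sec31a had the most negative change, -0.32 ± 0.18 (-0.70 to 0.07, adjusted p = 0.699), from 10.16, 9.73 and 9.37 to 9.71, 9.24 and 9.35. Sec24c changed by -0.22 (-0.53 to 0.09), from 10.41, 10.24 and 9.74 to 10.10, 9.85 and 9.78. In both genes, and in Sec24d, control hairpin replicate 1 was the highest array of the arm and replicate 3 lay far below it, so the control group spread more than any other. Sec13 changed by -0.18 (-0.43 to 0.07), Sec23a by -0.17 (-0.49 to 0.15), Sec24a by -0.04 (-0.37 to 0.29) and Sec24b by -0.07 (-0.32 to 0.18).

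Sar1b went the other way. It read 11.19, 11.18 and 11.07 with the control hairpin and 11.35, 11.39 and 11.31 with the IRE1a hairpin, so that all 3 hairpin arrays lay above the controls. The change of 0.21 ± 0.10 (1.15-fold, 0.00 to 0.41) was the member past the unadjusted threshold and did not pass the adjustment (adjusted p = 0.647). No paralogue pair passed in this comparison: the differences ran from -0.18 (Sec24c minus Sec24a, -0.58 to 0.22) to 0.25 (Sar1b minus Sar1a, -0.06 to 0.56). The widest bounds of their intervals were -0.58 and 0.59. Although no pair passed, the within-array differences did not overlap between the hairpin groups for Sec24c minus Sec24a, lower with the IRE1a hairpin. The same held for Sec24d minus Sec24c, which was higher. How many of all probe sets separate in this way was not counted.

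Across the 5 groups the members had different orders of level, which are descriptions since the arms differ in virus, time and hormone. Sec24d was highest with S724A, then wild-type IRE1a, and the EGFP, control hairpin and IRE1a hairpin groups overlapped one after the other beneath a gap. Sec23b and Sar1a had the same gap beneath the IRE1a groups. Sec24c and Sec31a ran S724A, wild-type, control hairpin, IRE1a hairpin, EGFP, so that both 72-hour groups averaged above EGFP. For Sec24c only EGFP was separated from its neighbour, and for Sec31a all neighbours overlapped.

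Sec23a ran from the control hairpin (mean 10.85 ± 0.35, SD, n = 3) and the IRE1a hairpin (10.68 ± 0.09) through EGFP (10.44 ± 0.13) and wild-type (10.15 ± 0.16) to S724A IRE1a (9.94 ± 0.05). The only step without overlap was that from the IRE1a hairpin to EGFP. Sec13, Sec24a and Sec24b had overlapping neighbours throughout. For Sar1b the IRE1a hairpin group lay above wild-type IRE1a, and the rest overlapped. The spread of group means was widest for Sec24d, at 1.52 log2 units, and narrowest for Sec24b, at 0.13.

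Correlations between members over the 15 arrays share this group structure and the same arrays, and are given as descriptions. Sec23b and Sec24d had r = 0.972, which was 0.375 after each group's mean was removed. Sar1a and Sec24d had r = 0.963, and 0.688 within groups. Sec24c and Sec31a had r = 0.929, and 0.890 within groups, so those genes also varied together from array to array. Sec23a and Sec23b had r = -0.786 over the arrays and 0.232 within groups.

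The genes whose brightest probe set followed the mean profile of the 10 members most closely, among 16294 genes, were Copg1, H13, Pgm3, Utrn and Tmed4. Their r over 15 arrays was 0.976, 0.968, 0.967, 0.965 and 0.963, and within groups 0.948, 0.880, 0.849, 0.930 and 0.833. Copg1 encodes a subunit of the COPI coat, and Tmed4 a cargo receptor of the p24 family. Of the members, Sec24c ranked 2 by the same measure and Sec31a 29, while Sec24a, Sar1b and Sec24b had r of 0.374, 0.0738 and -0.00652, and Sec23a -0.355. Within groups these 4 had r of 0.752, 0.540, 0.138 and 0.842, so that Sec23a, Sec24a and Sar1b varied with the profile from array to array. Each member is itself part of that profile.

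Genes that work with COPII were counted next, in lists chosen with earlier results of these data known, each gene by its brightest probe set. Over all 16294 genes counted so, 4.21% rose and 2.17% fell with wild-type IRE1a, and 3.25% rose and 1.75% fell with S724A IRE1a, with medians of 0.00 and -0.01. Of 10 genes with a probe set listed for ER exit sites, where COPII vesicles bud, 4 rose and 0 fell with each form of IRE1a. The medians of this list were 0.35 and 0.46. It includes a transcription factor, Creb3l2, which is not an exit site protein and is among the 4 in both comparisons. Sec16a, the scaffold of exit sites, rose by 0.63 ± 0.11 with wild-type (adjusted p = 0.00349) and 0.62 ± 0.11 with S724A IRE1a (adjusted p = 0.00449). Preb, the SEC12 exchange factor that loads SAR1 with GTP, rose by 1.02 ± 0.20 (2.03-fold, adjusted p = 0.00737) and 0.97 ± 0.20 (adjusted p = 0.0124), the latter call lost without EGFP replicate 2 (adjusted p = 0.0571) or S724A replicate 3 (0.0663). Creb3l2, a transcription factor that drives Sec23a in mouse cartilage, rose by 1.09 ± 0.22 (adjusted p = 0.00928) and 1.16 ± 0.22 (adjusted p = 0.00696), whereas Sec23a did not rise. The first of these Creb3l2 calls was lost with the 6 arrays fitted alone (adjusted p = 0.0549).

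Sec16b, a shorter relative of Sec16a, rose by 1.30 ± 0.31 with wild-type IRE1a (adjusted p = 0.0283), but did not pass once EGFP replicate 1 (adjusted p = 0.0768), 2 (0.105) or 3 (0.0708) or the second (0.0826) or the third (0.107) wild-type array was left out, or with the 6 arrays fitted alone (0.0513). With S724A it changed by 1.07 ± 0.31 (adjusted p = 0.0734, and 0.00885 with the replicate block). Mia3 (TANGO1), which loads bulky cargo such as procollagen, changed by 0.31 ± 0.13 with wild-type (adjusted p = 0.210) and rose by 0.63 ± 0.13 with S724A IRE1a (adjusted p = 0.0100). The latter was lost without EGFP replicate 2 (adjusted p = 0.0626) or S724A replicate 3 (0.0559). Over 17 alternatives the count of genes of the exit site list that rose ran from 2 to 4 with wild-type and from 2 to 5 with S724A.

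Of 12 genes for tethering and fusion of the vesicles, 6 rose with wild-type and 5 with S724A IRE1a, and 0 fell, with medians of 0.40 and 0.31. Uso1, the long tether that meets COPII vesicles, rose by 1.17 ± 0.13 (2.25-fold, adjusted p = 9.88e-05) and 1.22 ± 0.13 (2.33-fold, adjusted p = 6.96e-05). Bet1, a SNARE of the vesicle, rose by 1.26 ± 0.13 (adjusted p = 3.73e-05) and 1.12 ± 0.13 (adjusted p = 0.000107). Its partner SNARE Stx5a rose by 0.92 ± 0.12 and 0.83 ± 0.12 (adjusted p = 0.000508 and 0.00127). Sec22b, another SNARE of this fusion step, rose by 0.56 ± 0.11 and 0.58 ± 0.11 (adjusted p = 0.00837 and 0.00769), the first call lost with the 6 arrays fitted alone (0.0651). Over 17 alternatives the count that rose ran from 3 to 7 with wild-type and from 4 to 6 with S724A, and the count that fell was 0 or 1.

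The COPI coat, which carries proteins back to the ER, had 4 of 9 genes that rose and 0 that fell in both comparisons, with medians of 0.47 and 0.52. Cope, its epsilon subunit, rose by 1.19 ± 0.15 (2.29-fold, adjusted p = 0.000340) and 1.16 ± 0.15 (2.23-fold, adjusted p = 0.000469). Copg1, the first gamma subunit, rose by 0.75 ± 0.16 (adjusted p = 0.0120) and 0.86 ± 0.16 (adjusted p = 0.00537), while its paralogue Copg2, named after its values were seen, changed by 0.10 ± 0.14 and 0.01 ± 0.14. The wild-type call of Copg1 was lost without EGFP replicate 2 (adjusted p = 0.0666) or 3 (0.0589). Copz1 rose by 0.45 ± 0.10 (adjusted p = 0.0216) and 0.62 ± 0.10 (adjusted p = 0.00322). Copa rose by 0.59 ± 0.14 (adjusted p = 0.0295) and 0.62 ± 0.14 (adjusted p = 0.0254). Each Copa call and the wild-type call of Copz1 were lost under 6 of 17 alternatives, and the S724A call of Copz1 under 1. Without EGFP replicate 2 the count fell to 1 of 9, and without EGFP replicate 3, without wild-type replicate 2 or after quantile normalization to 2. Over 17 alternatives it ran from 1 to 6 with wild-type and from 2 to 5 with S724A.

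The clathrin coat and its adaptors, which act at the Golgi and the cell surface, had 0 of 11 genes that rose and 1 that fell in each comparison (limma; 1 of 11 at an unadjusted p under 0.05), with medians of -0.02 and -0.04. That gene was Clta, a light chain, which fell by 0.51 ± 0.09 with wild-type (adjusted p = 0.00516) and by 0.42 ± 0.09 with S724A IRE1a (adjusted p = 0.0220). The S724A call was lost without EGFP replicate 2 or 3 or S724A replicate 2 or 3 (adjusted p up to 0.0980) and with median centring, and both calls were lost with the mean of its probe sets (-0.24 and -0.16). By the same counting the COPII genes had 5 of 10 that rose and medians of 0.55 and 0.57, against the 4.21% and 3.25% of all genes. In the wild-type against S724A and the hairpin comparisons 0 genes of these 4 lists passed in either direction (limma; at most 1 of a list at an unadjusted p under 0.05).

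**Figure D4:**
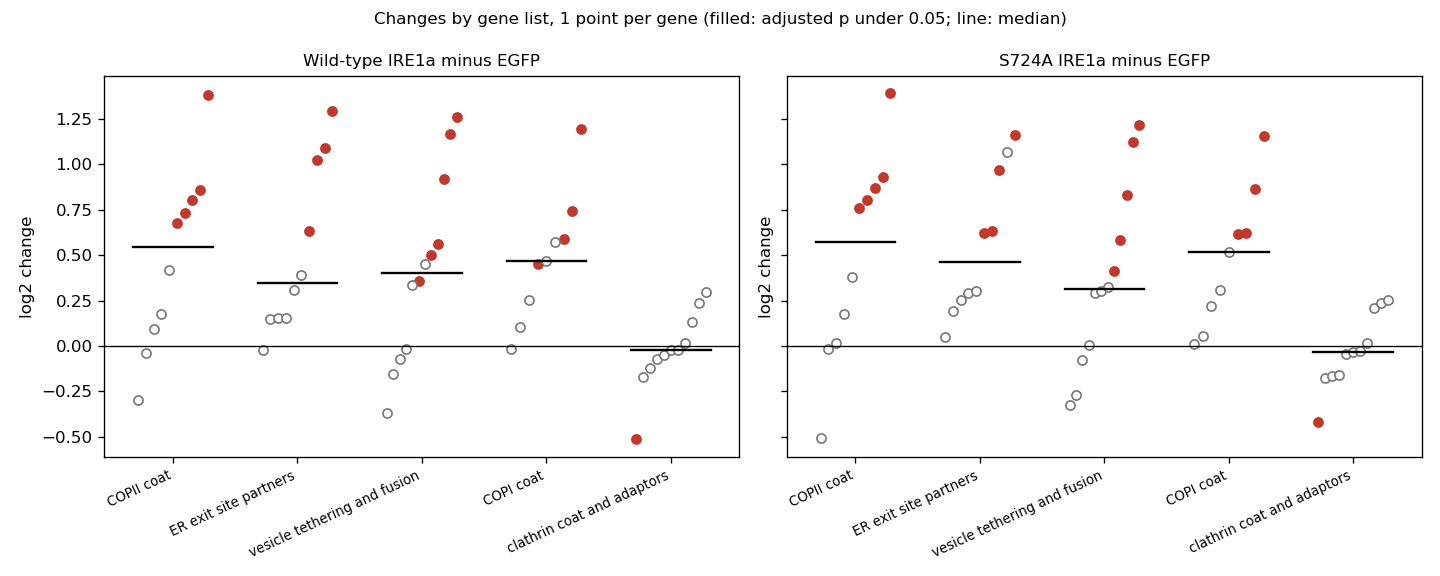
Log2 change of each gene, 1 point per gene by its brightest probe set, in the COPII coat and 4 partner or comparison lists, with filled points where the adjusted p was under 0.05 and a line at each median. The COPII, exit site, tethering and COPI lists have medians between 0.31 and 0.57, and the clathrin list has medians of -0.02 and -0.04.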

How the data were processed

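Messenger RNA of 15 cultures was measured on Affymetrix Mouse Genome 430 2.0 arrays. The authors deposited a log2 signal for each probe set on each array, made with GCRMA per the submitters' processing notes; its version was not given in the sources used here. A log2 scale was read from the values (array medians 5.69 to 5.83). Probe sets were named by the platform's annotation: 34945 had 1 symbol, 932 several and 9160 none, and 64 control probe sets were left out. A probe set was tested when it reached 4 on at least 3 arrays.

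In R 4.3.3, limma 3.58.1 fitted a model of 5 group means to all 15 arrays (lmFit, eBayes, 10 residual degrees of freedom). All p-values of genes are from its two-sided moderated test, with Benjamini-Hochberg adjustment over all 37203 probe sets tested and a threshold of 0.05. Paralogue differences were fitted the same way to each probe set minus a reference gene on the same array. Changes are given ± SE and group levels ± SD. Precision is limited by the number of arrays, and the median half-width of a 95% interval was 0.31. The fits were tested on simulated data. Fixed rules named every member probe set, Ern1, up to 4 genes per list by smallest p in a comparison, and the 5 genes most like the members' mean profile. The members and gene lists were chosen with earlier results of these data known. Promoter sequences are RefSeq's, build GRCm38.p6; the array files name no build, and 1 of the matched stretches is not reported here.

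Residuals of same-number arrays in the 12 pairings within an arm correlated from 0.071 to 0.613, and 11 of them were over 0.1. In the 18 same-number pairings between the arms they correlated from -0.111 to 0.210, and 4 of these were over 0.1. Within an arm the exception was EGFP with wild-type replicate 2 (0.071), against 0.238 and 0.258 for replicates 1 and 3. Both of these replicate 2 arrays correlated with S724A replicate 2 (0.292 and 0.287). The numbers were read as pairing the samples in the other 3 comparisons, and whether they do so for wild-type IRE1a and EGFP is not settled. The main fit left the numbers out, and every interval given is from that fit. Results with the numbers as a block are given beside it where the call of a member changed.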

Additional observations from a re-analysis of the deposited data

How the results depend on the processing

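Each of the 14 probe sets was refitted under 17 alternatives where it could be had (quantile normalization, median centring, no filter, a filter of 6, a floor of 4, the 6 arrays alone, trended or robust variances, the replicate block, 1 probe set or the mean of probe sets per gene, and each array left out), and each paralogue difference under 11, of which the swapped reference was added after seeing the data, as were the refits of the partner lists and Ern1. No result reversed. Sec24d, Sec23b and Sar1a kept both calls throughout, with adjusted p of at most 0.00144, 0.0153 and 0.0276. The member probe sets (genes, where 1 value stood for a gene) that rose numbered 5 to 7 with wild-type and 4 to 7 with S724A IRE1a, while over all probe sets 1.51% to 6.17% and 1.26% to 5.09% rose, and 1 member probe set, that of Sec23a, fell with S724A after quantile normalization, with the 6 arrays alone and with the replicate block. Sec24c minus Sec24a passed with trended variances (0.68 with wild-type, adjusted p = 0.0458; 0.76 with S724A, 0.0277), with Sec24c as the reference (0.68 and 0.76) and, for S724A, with the 6 arrays alone (0.76, 0.0367). With 1 array left out, Sec24c minus Sec24b ran from 0.82 to 0.98 with wild-type and from 0.85 to 0.97 with S724A, and Sec24d minus Sec24c from 0.37 to 0.53 with S724A; the calls lost are named in the report. The cause of these shifts was not tested. With the replicate block, 7 member probe sets rose and 0 fell with wild-type (Sec13 adjusted p = 0.0221; 6.17% and 3.06% over all), and 7 rose and 1 fell with S724A (5.09% and 3.01%); it changed no other call of a member or pair. Whether the numbers pair the samples of wild-type IRE1a and EGFP is not settled, since replicate 2 of these groups correlated at 0.071. The median change of all probe sets, -0.01 in both IRE1a comparisons, was 0.01 and 0.02 after median centring and -0.01 and -0.02 after quantile normalization. Dim probe sets near background, such as the second ones of Sec24a and Sec24c, limit what a disagreement within a gene shows.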
